A study of Rattus norvegicus with 14 samples.

Results

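The comparison described here set new tissue growing in the graft area of the rat oesophagus 1 week after surgical repair against host tissue at the edge of the wound on the day after repair. It used 9 of the 14 samples of the series: 4 libraries labelled Day 7 (week 1) and 5 labelled Day 1 (day 1). Libraries were kept by their labels, and cytosines by depth alone. A CpG cytosine on chromosomes 1 to 20 was chosen when it had at least 10 reads in at least 3 week 1 libraries and at least 4 day 1 libraries, and methylated and total read counts were then summed over tiles of 1 kb that held at least 3 such cytosines. Of 9549492 cytosines listed in any of the 9 libraries, 81485 were chosen, and 51185 of these fell in the 10589 tiles that were tested.

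All animals were male rats of 8 to 9 weeks, and no strain is named in the labels. In both groups a defect of the oesophagus had been repaired with an acellular bi-layer silk fibroin (BLSF) scaffold. The day 1 samples were punches of host tissue taken within 2 mm of the edge of the defect, and the week 1 samples were neotissue from the original graft site. Unoperated oesophagus (NSC, nonsurgical controls, 4 libraries) was used for no choice and no test, and is given only as a level. A further week 1 sample of the labels was not analysed here. Tissue site and time differed together between the groups, so they cannot be told apart. The labels do not say that the libraries came from separate animals, so the p-values measure the spread between these libraries, which may be partly technical. Every title carries one run code and no batch is given, and the sample codes run in group order, so processing order and group cannot be told apart.

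In mammalian DNA, most methylation sits on the cytosine of CpG pairs. CpG-rich stretches such as those at many gene starts are usually unmethylated, while CpGs elsewhere are usually methylated in most cells. A CpG that is methylated in only part of the molecules, as is common at enhancers and other regulatory DNA, often differs between cell types. The oesophagus is lined by a stratified squamous epithelium, renewed from a basal layer, over connective tissue and muscle, and a healing graft also draws in leukocytes, fibroblasts and vessels. Reduced representation bisulfite sequencing (RRBS) cuts DNA with MspI, keeps the short fragments, which are rich in CpG, and converts unmethylated cytosine so that each read reports methylated or not. In bulk tissue a changed mix of cells and a change of methylation within cells cannot be told apart. Methylation does not measure the expression of marker genes, so the labelled tissues could not be checked against markers. Positions are those of the assembly mRatBN7.2. Its gene annotation was not used here, and tiles are named by where they lie.

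Depth differed between libraries. The 9 libraries listed 1432898 to 3424760 cytosines, each with at least 5 reads, and the reads summed over them ran from 9676493 (day 1 replicate 2) to 33953856 (day 1 replicate 1). Day 1 replicate 2 reached 10 reads at 12650 of the chosen cytosines, against 66222 to 81247 in the other libraries. It listed none of the chosen cytosines in 5317 of the tiles (a cytosine with fewer than 5 reads is not listed). Levels over all libraries were therefore taken over the 8178 cytosines that every one of the 9 libraries covered with 10 or more reads, where median depth ran from 16 reads (day 1 replicate 2) to 73 (day 1 replicate 5).

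The week 1 graft tissue was less methylated than the day 1 margin. Mean CpG methylation, counting each cytosine once, was 60.6%, 61.2%, 59.5% and 61.6% in the week 1 libraries and 63.0%, 62.1%, 62.4%, 62.9% and 62.0% in the day 1 libraries. Every week 1 library lay below every day 1 library. The group means were 60.7% ± 0.90 (SD, n = 4) at week 1 and 62.5% ± 0.46 (SD, n = 5) at day 1, so that week 1 differed by -1.75 percentage points (p = 0.0159 by an exact permutation test, two-sided, which can go no lower with 4 against 5 libraries). With reads pooled over the cytosines, which lets deeply read cytosines count for more, the difference was -3.22 points, the groups overlapped and the test did not pass (exact permutation p = 0.127). With depth made equal by drawing 10 reads at each cytosine the difference was -1.73 points and the groups stayed apart.

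The level of the unoperated oesophagus stood below both groups. Over the 7488 cytosines that also had at least 10 reads in all 4 NSC libraries, the mean was 58.3% ± 0.16 (SD, n = 4) in NSC, 59.7% ± 0.88 (SD, n = 4) at week 1 and 61.3% ± 0.47 (SD, n = 5) at day 1. The lowest week 1 library, at 58.5%, was next to the highest NSC library, also at 58.5%.

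**Figure D1:**
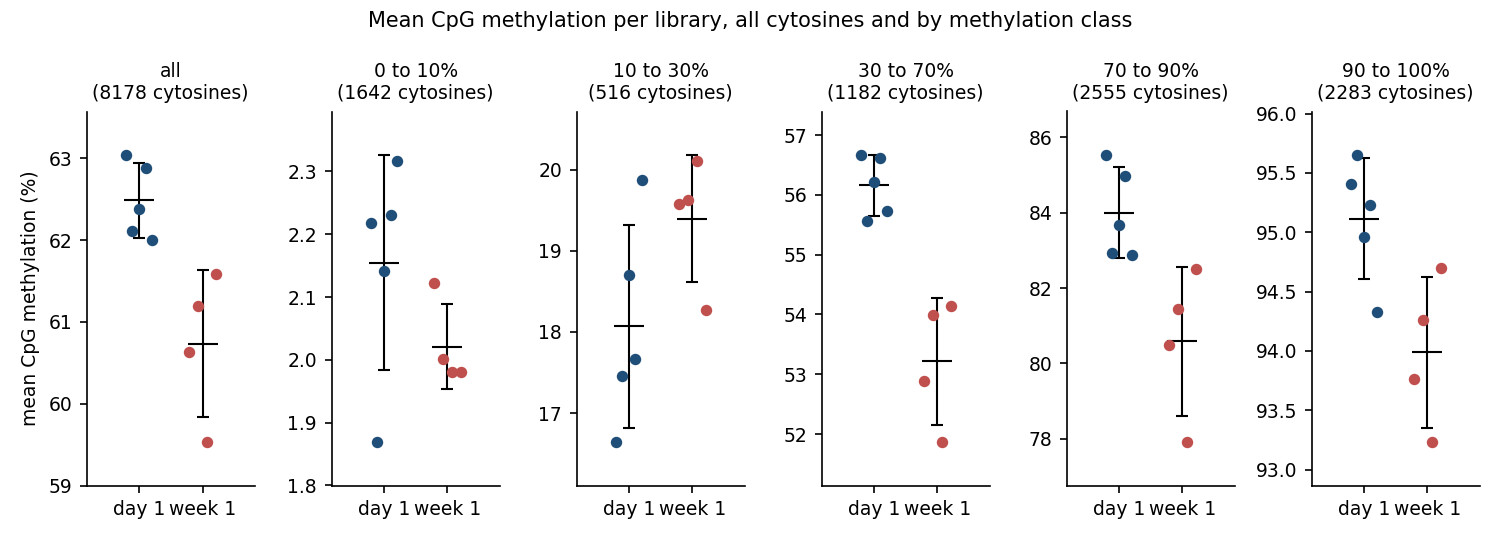
Mean CpG methylation in percent on the vertical axis for each library (points), over all 8178 cytosines and in 5 methylation classes set by the midpoint of the 2 group means; long bars are group means and error bars are SD. The vertical axes differ between panels and do not start at 0. The groups are apart over all cytosines and in the classes of 30 to 70% and 70 to 90%, and overlap in the other classes.

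The difference passed the test in cytosines of intermediate and high methylation. Cytosines were put in 5 classes by the midpoint of the 2 group means, which weighs both groups alike, and p-values of the exact permutation tests were adjusted over the 5 classes. In the class of 70 to 90%, which held 2555 cytosines, the week 1 libraries were at 80.5%, 81.4%, 77.9% and 82.5%, and the day 1 libraries at 85.5%, 82.9%, 83.7%, 85.0% and 82.9%. Week 1 was lower throughout, although the highest week 1 library and the lowest day 1 library were close. The difference was -3.41 points (80.6% ± 1.97, SD, n = 4, against 84.0% ± 1.21, SD, n = 5; exact permutation test, adjusted p = 0.0397). In the class of 30 to 70%, with 1182 cytosines, the libraries were at 51.9 to 54.1% at week 1 and at 55.6 to 56.7% at day 1, again without overlap. The difference there was -2.94 points (exact permutation test, adjusted p = 0.0397).

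The remaining classes did not pass the test. The 2283 cytosines at 90 to 100% were at 94.0% and 95.1%, a difference of -1.13 points (exact permutation test, adjusted p = 0.0529). The 516 cytosines at 10 to 30% were at 19.4% at week 1 and 18.1% at day 1, a difference of 1.33 points in the other direction (exact permutation test, adjusted p = 0.159). That difference turned to -0.923 points with 20 reads per cytosine and was 0.740 points without day 1 replicate 1. Cytosines under 10% (1642 of them) were at 2.02% and 2.15%, a difference of -0.134 points (exact permutation test, adjusted p = 0.222). Whether the classes differ from each other was not tested. With a minimum of 5 reads neither class that had passed did so (exact permutation test, adjusted p = 0.159 at 30 to 70% and 0.0794 at 70 to 90%). With 20 reads both had an adjusted p of 0.0794 (exact permutation test), at differences of -2.73 and -3.29 points. At 70 to 90% the groups did not overlap in either setting (exact permutation test, unadjusted p = 0.0159, the smallest possible). The adjusted p of this class was higher because the class at 30 to 70% no longer reached that smallest p.

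In an analysis added after the data had been seen, the week 1 libraries held more cytosines that were methylated in part of their reads. It used the same cytosines and drawn reads as the mean at equal depth given above, so it is not separate evidence. With 10 reads drawn per cytosine, the share of cytosines with 2 to 8 methylated reads was 39.1%, 37.5%, 41.7% and 36.7% at week 1 and 31.3%, 33.9%, 34.02%, 32.7% and 36.2% at day 1. Each week 1 library had a larger mixed share than any day 1 library, and week 1 replicate 4 and day 1 replicate 5 were the closest. The difference was 5.12 points (exact permutation test, p = 0.0159, adjusted p = 0.0794 over 5 read classes), which does not pass after adjustment. That unadjusted p is the smallest possible with 4 against 5 libraries, so a read class that alone reached it could not pass. The share with all 10 reads methylated was 22.2% ± 1.94 (SD, n = 4) at week 1 and 26.7% ± 2.19 (SD, n = 5) at day 1, a difference of -4.44 points (exact permutation test, adjusted p = 0.0794). Over the 7488 cytosines shared with NSC, the mixed share was 37.9% at week 1, 32.8% at day 1 and 40.8 to 41.8% in the NSC libraries. The fully methylated share was 21.8%, 26.3% and 19.6 to 20.2% there, so both NSC shares lay nearer to the week 1 mean. Shares with none, 1 or 9 of 10 reads methylated differed by -0.377, -0.0385 and -0.266 points, and none of these passed (exact permutation test, adjusted p from 0.688 to 0.873).

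Libraries of one group were about as far from each other as from the other group. At 10 drawn reads the mean absolute difference per cytosine was 11.0 to 13.1 points (median 11.6) over the 20 pairs of a week 1 and a day 1 library. It was 11.3 to 12.2 points (median 11.6) over the 6 pairs within week 1 and 10.5 to 11.998 points (median 11.1) over the 10 pairs within day 1. The pairs share libraries, so no test was made. Drawing 10 reads adds sampling noise to every pair, and the size of that noise was not measured. The distances therefore cannot show how distinct the groups are.

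No single tile passed the test. The edgeR quasi-likelihood test called 0 of the 10589 tiles (0%) at a Benjamini-Hochberg adjusted p under 0.05 with a difference of at least 10 points, and the smallest adjusted p was 0.0676. At an unadjusted p under 0.05 there were 837 tiles (7.90%), of which 672 (6.35%) were lower and 165 (1.56%) higher at week 1. With limma on tile percents, 0 of the 5101 tiles with a value in every library were called, before or after centring each library, and 542 and 389 had an unadjusted p under 0.05. A tile here holds a median of 4 cytosines, and the SD between libraries was as large as the differences. In the 5101 tiles the median SD was 3.96 points at week 1 and 4.43 points at day 1, and the median absolute difference between the groups was 2.61 points.

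Small differences in one direction ran across the tiles. The median difference was -0.965 points (quartiles -4.29 and 0.833), with 62.7% of tiles lower and 35.4% higher at week 1. Differences of at least 10 points were seen in 688 tiles that were lower (6.50%) and 234 that were higher (2.21%). Among the 5101 tiles with a value in every library, the groups did not overlap in 189 (3.71%), with week 1 below in 168 (3.29%) and above in 21 (0.412%). Without week 1 replicate 3, the library with the lowest mean, the median difference was -0.590 points. Over the 5101 tiles with a value in every library the median was -1.09 points, and 64.6% were lower. Centring each library at its own mean takes the mean difference of -1.70 points over these tiles out of every tile alike. The median then became 0.613 points and 44.3% of these tiles were lower, a shift that follows from the centring. The limma split at an unadjusted p under 0.05 was 481 lower and 61 higher before centring and 214 lower and 175 higher after it. The directions given below are as measured, and the centred values are given where they differ.

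**Figure D2:**
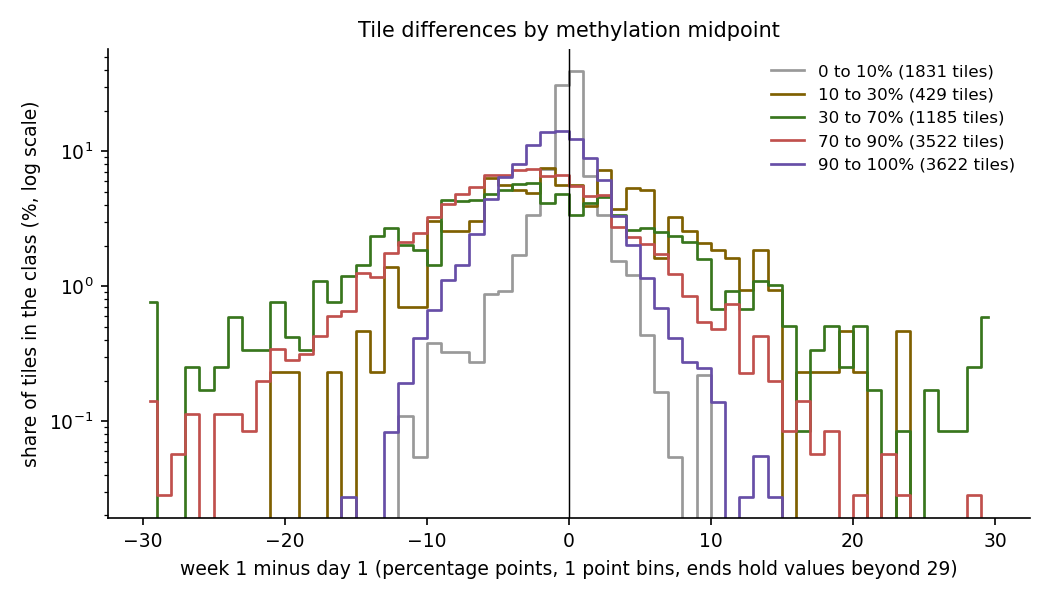
Share of tiles in percent (vertical, log scale) by the week 1 minus day 1 difference in percentage points (horizontal, bins of 1 point, end bins hold values beyond 29), one line per class of tile methylation. The lines for 30 to 70% and 70 to 90% reach further to the left of 0 than to the right, and the line for tiles under 10% is narrow and centred near 0.

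The differences between tiles varied with their methylation. The 3522 tiles at 70 to 90% had a median difference of -3.07 points, and 71.0% of them were lower at week 1. At an unadjusted edgeR p under 0.05 they held 349 tiles (9.91%), 326 lower and 23 higher. Over all tiles there were 837 (7.90%), 672 lower and 165 higher. Median differences were -2.67 points in the 1185 tiles at 30 to 70% and -1.01 points in the 3622 tiles at 90 to 100%. They were -0.0653 points in the 429 tiles at 10 to 30% and 0 in the 1831 tiles under 10%. Over tiles with a value in every library, the tiles at 70 to 90% were at 78.1 to 82.1% at week 1 and 82.3 to 85.0% at day 1, without overlap. Unlike the cytosines of that class, the tiles at 30 to 70% overlapped, at 52.7 to 55.7% at week 1 and 54.6 to 57.7% at day 1. After centring, tiles at 70 to 90% (-1.24 points) and at 30 to 70% (-0.483 points) were still below the mean over all tiles. The tiles under 10% (1.58 points), at 10 to 30% (2.24 points) and at 90 to 100% (0.321 points) lay above it. Tiles under 10% had a median midpoint of 0.566% and differed by -0.124 points before centring. They had little room to fall, so their centred value follows largely from the shift of -1.70 points.

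The median difference was larger in CpG-poor than in CpG-rich tiles, a description without a test. Density was taken as the number of CpG cytosines, counted on both strands, that any of the 9 libraries listed in a tile. The 3701 tiles with fewer than 15 had a median difference of -1.84 points, and 67.5% of them were lower. The median was -1.37 points in 3946 tiles with 15 to 29 cytosines, -0.344 points in 2144 tiles with 30 to 59, and 0 in 798 tiles with 60 or more. In the sparsest tiles, library means over tiles with complete values were 75.2 to 77.9% at week 1 and 78.4 to 80.1% at day 1. In the densest tiles, which were nearly unmethylated, they were 8.91 to 9.35% and 9.19 to 9.82%, and the groups overlapped. Methylation differed with density (median tile midpoint 87.9% in the sparsest tiles and 0.544% in the densest), so the same was looked at within tiles at 70 to 90%. There the medians were -3.36 points with fewer than 15 cytosines, -3.11 with 15 to 29 and -2.19 with 30 to 59. After centring, the sparsest tiles were lower by -0.722 points and the densest higher by 1.48 points than the mean over tiles. Before centring the densest differed by -0.226 points, and most of them had little room to fall.

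**Figure D3:**
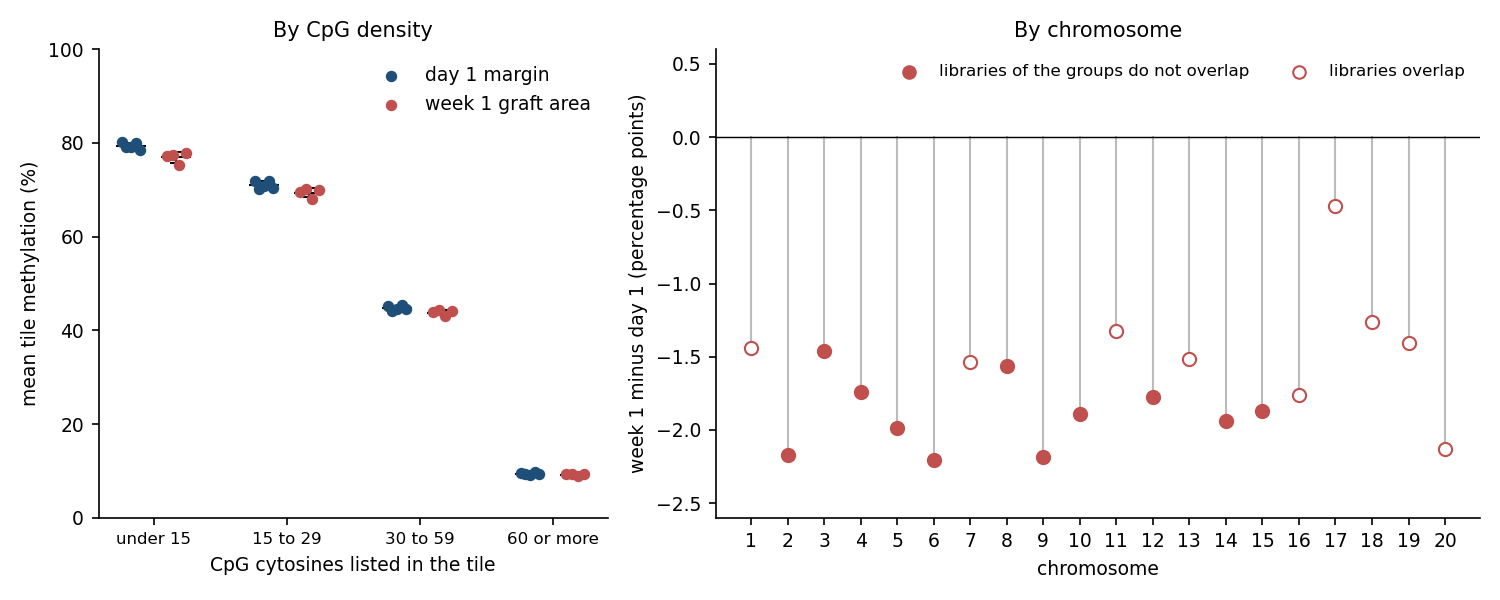
Left, mean tile methylation in percent for each library by the number of CpG cytosines listed in the tile (points, with group mean and SD). Right, the difference of group means in percentage points on each of 20 chromosomes, filled where the libraries of the groups do not overlap. Week 1 lies below day 1 on every chromosome before centring, with the smallest difference on chromosome 17.

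The lower level was spread over the genome. On all 20 chromosomes the week 1 mean over complete tiles was below the day 1 mean, from -2.21 points on chromosome 6 to -0.471 points on chromosome 17, with a median of -1.75 points. The libraries of the groups did not overlap on 11 of the 20 chromosomes. After centring, 11 chromosomes lay below and 9 above the mean over tiles, from -0.505 to 1.23 points. Differences of neighbouring tiles were only weakly alike. As a description across tiles, which share libraries and depth, Pearson's r was 0.204 for 566 pairs of tiles side by side, 0.174 for 221 pairs 2 kb apart, 0.0625 for 193 pairs 5 kb apart and 0.00629 for 179 pairs 10 kb apart.

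The lower level was seen on both DNA strands. At 363 CpG pairs with at least 10 reads on both strands in all 9 libraries, the difference was -2.83 points on one strand and -2.58 points on the other, and the groups did not overlap on either. Single cytosines gave a like split: 59.5% of the 8178 were lower at week 1. The groups did not overlap in 176 cytosines below (2.15%) and 44 above (0.538%). Averaging cytosines within a tile instead of summing reads gave a median tile difference of -0.932 points, with the same sign in 92.7% of tiles and in 913 of the 922 tiles with a difference of at least 10 points. All cytosines of a tile lay on one side in 521 of the 688 tiles that were lower by 10 points (75.7%) and in 151 of the 234 that were higher (64.5%), against 22.5% of all tiles. Tiles with large differences hold few cytosines (median 3), so these shares are descriptions.

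Since no tile passed, the tiles named next were chosen after their values were seen. They have at least 10 reads in each of the 9 libraries, groups that do not overlap, a difference of at least 10 points and an unadjusted edgeR p under 0.05. This left 35 tiles that were lower and 10 that were higher at week 1, and the 12 lower tiles with the largest differences and all 10 higher tiles are described. Their values chose them, so counts over them support nothing. Among the 12, week 1 means ran from 38.1 to 76.3% and day 1 means from 55.8 to 98.1%, with differences from -25.1 to -14.5 points and adjusted p from 0.0676 to 0.632 (edgeR). Among the 10, week 1 means ran from 22.3 to 98.5% and day 1 means from 9.29 to 87.6%, with differences from 10.9 to 28.8 points and adjusted p from 0.165 to 0.585 (edgeR). In the 12, 47 of 48 cytosines lay in the direction of their tile, and in the 10, 52 of 55. The NSC mean was nearer to week 1 than to day 1 in 7 of the 12 and 8 of the 10.

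**Figure D4:**
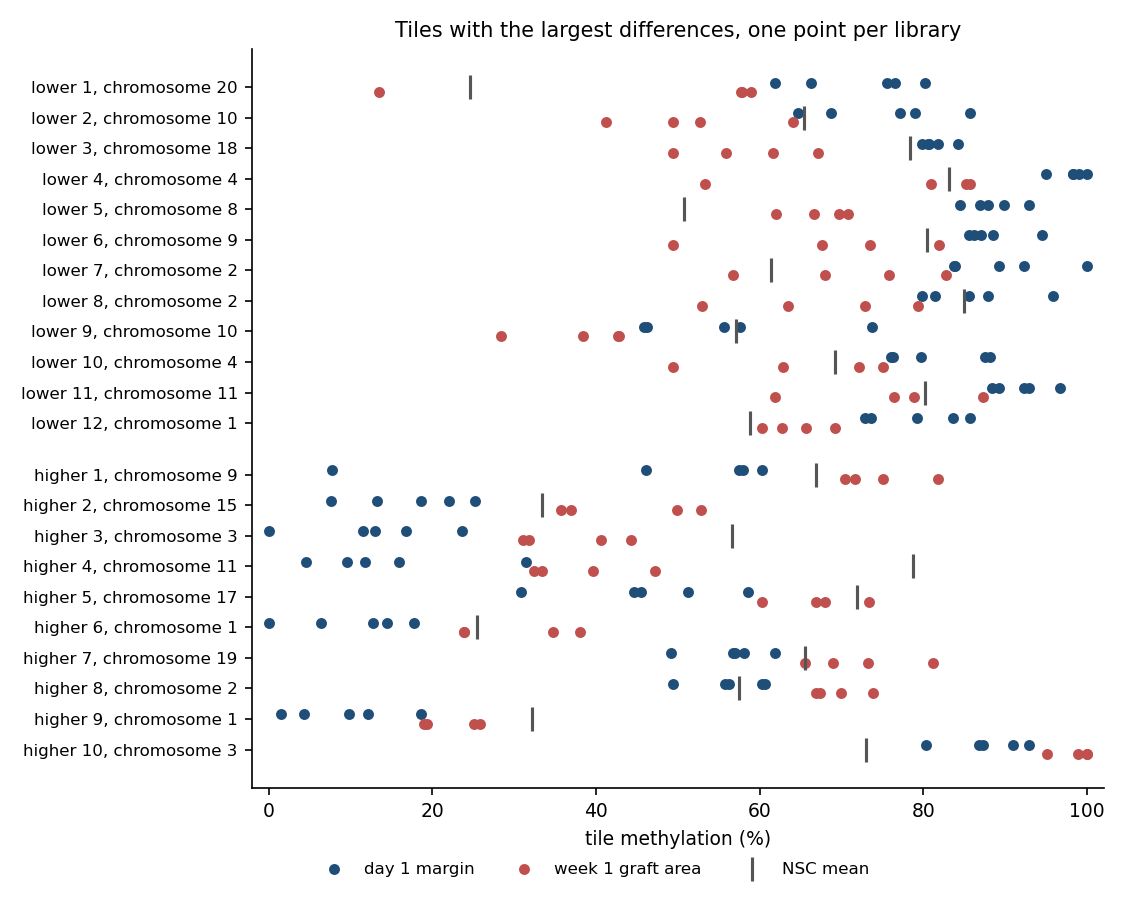
Tile methylation in percent (horizontal) in each library for the 12 tiles named as lower and the 10 named as higher at week 1, with the NSC mean as a bar. Groups do not overlap in any of them because that chose them, and single libraries stand far from their group in the tiles at the top of each block.

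The tile from 68973001 to 68974000 on chromosome 18 had one of the 2 smallest adjusted p-values of all tiles. Its 7 cytosines gave 61.7%, 55.9%, 49.4% and 67.1% in the week 1 libraries and 81.8%, 80.6%, 84.2%, 79.9% and 80.5% in the day 1 libraries, over 62 to 1353 summed reads per library. Day 1 libraries lay close together and the week 1 libraries were all well below them. The difference was -22.9 points (58.5% ± 7.61, SD, n = 4, against 81.4% ± 1.70, SD, n = 5), with a log2 odds ratio of -1.63 ± 0.28 (approximate SE) and an adjusted p of 0.0676 (edgeR). NSC stood at 78.3% ± 2.90 (SD, n = 4), near day 1. This tile passed in 4 of the 20 alternatives in which it could be tested: 20 reads per cytosine, reads in all 9 libraries, 5 cytosines per tile and a trended dispersion. In the first 3 of these, p-values were adjusted over 2398, 968 and 3763 tiles, against 10589 in the test above, so the passes are not on a like base. With 20 reads and with 5 cytosines per tile, the tile kept its 7 cytosines and its difference of -22.9 points.

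The lower level at week 1 ran on into the next tile and ended within it. Across 14 cytosines from 68973828 to 68974090 on chromosome 18, a span of 263 bp, each was lower at week 1, by -29.97 to -13.1 points, and the groups did not overlap at 11 of them. Summed over this stretch, the week 1 libraries were at 67.2%, 54.8%, 55.2% and 70.6% and the day 1 libraries at 84.2%, 83.3%, 86.5%, 84.4% and 83.5%, with NSC at 81.7% ± 1.75 (SD, n = 4). The next cytosine lay 36 bp further on. There, 4 cytosines from 68974126 to 68974181 were at 28.2% ± 2.63 (SD, n = 4) at week 1 and 30.4% ± 11.1 (SD, n = 4) at day 1, where day 1 replicate 2 listed none of them, and the groups overlapped. Of the other day 1 libraries, replicate 5 stood apart at 46.1%, against 21.02 to 30.03%, and the week 1 libraries were at 25.8 to 31.9%. NSC was at 78.8% ± 6.05 (SD, n = 4) at those 4 cytosines. The stretch and its end were placed where the differences stopped, so its count of lower cytosines and its contrast with the 4 that follow are fixed by that choice. The next tile as a whole, from 68974001 to 68975000, differed by -19.3 points with groups that overlapped (edgeR adjusted p = 0.609), and by -12.4 points without day 1 replicate 2.

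**Figure D5:**
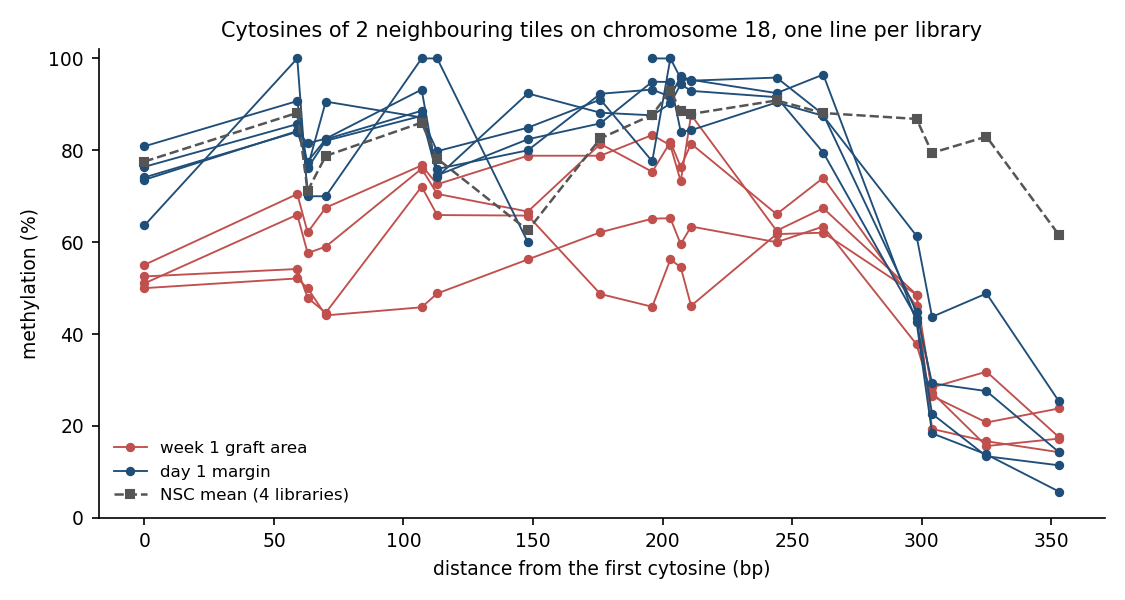
Methylation in percent at 18 cytosines on chromosome 18 by distance from the first of them in bp, one line per library, with the NSC mean of 4 libraries as a dashed line. Over the first 14 cytosines, chosen for their difference, most week 1 lines lie below the day 1 lines and NSC, and at the last 4 the lines of both operated groups overlap below NSC, with day 1 replicate 5 the highest of them.

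Among the tiles that were higher at week 1, the smallest adjusted p belonged to one on chromosome 15, from 28212001 to 28213000. Its 4 cytosines gave 35.8%, 49.9%, 52.8% and 37.0% at week 1 and 18.6%, 22.0%, 25.2%, 7.60% and 13.3% at day 1, over 50 to 935 summed reads per library. Every week 1 library was above every day 1 library. The difference was 26.5 points (43.9% ± 8.74, SD, n = 4, against 17.3% ± 7.00, SD, n = 5; edgeR adjusted p = 0.165), and NSC lay between them at 33.4% ± 3.88 (SD, n = 4). The tile passed where reads in all 9 libraries were required (3 cytosines, 28.8 points, edgeR adjusted p = 0.0493 over 968 tiles). A tile on chromosome 11, from 64998001 to 64999000, was at 38.1% ± 6.85 (SD, n = 4) at week 1 and 14.7% ± 10.2 (SD, n = 5) at day 1, with NSC far higher at 78.7% ± 7.09 (SD, n = 4). Its closest libraries were at 32.4% and 31.4%. A tile on chromosome 3, from 156419001 to 156420000, was at 40.6%, 44.2%, 31.0% and 31.8% at week 1 and at 16.7%, 0%, 13.0%, 11.5% and 23.6% at day 1. The 0% came from 20 reads in day 1 replicate 2, and NSC stood at 56.6% ± 1.57 (SD, n = 4). In both of these tiles the week 1 value lay between day 1 and NSC.

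A tile on chromosome 19, from 18788001 to 18789000, held more cytosines. All 10 of its cytosines were higher at week 1, by 0.897 to 32.6 points. The libraries were at 69.0%, 65.5%, 73.2% and 81.2% at week 1 and 49.1%, 58.1%, 56.9%, 61.8% and 56.7% at day 1, and NSC was at 65.5% ± 5.28 (SD, n = 4). The difference of 15.7 points did not pass after adjustment (edgeR adjusted p = 0.528). Over 19 alternatives it ran from 7.75 points (10 reads drawn per cytosine) to 17.9 points (without week 1 replicate 2).

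Some large differences rested on 1 library or 1 cytosine. The tile with the largest negative difference among those named, on chromosome 20 from 10974001 to 10975000, was -25.1 points (58.9%, 57.7%, 13.5% and 57.9% against 66.3%, 75.6%, 76.5%, 80.2% and 61.9%), and it was -13.9 points without week 1 replicate 3. On chromosome 4, the tile from 153311001 to 153312000 was at 76.3% ± 15.5 (SD, n = 4) at week 1 and 98.1% ± 1.91 (SD, n = 5) at day 1 (edgeR adjusted p = 0.0676). It passed without day 1 replicate 5 (-22.6 points, edgeR adjusted p = 0.0229), with 5 cytosines per tile (3763 tiles tested) and with a trended dispersion. Without week 1 replicate 4 it was -14.1 points (edgeR adjusted p = 0.142). Libraries did not cover this tile alike: of its chosen cytosines, week 1 replicate 4 listed none after 153311362 and day 1 replicate 2 only the last. The cytosine at 153311362 differed most, by -56.7 points, and the others by -8.12 to 0.406 points. That cytosine was at 27.5%, 46.4%, 87.5% and 0% at week 1 and at 100%, 100%, 90.5% and 97.7% in the 4 day 1 libraries that list it, while the cytosine 15 bp before it differed by -5.28 points. Its NSC values were also spread, at 98.5%, 100%, 74.1% and 0%. On chromosome 8, the tile from 84179001 to 84180000 passed only with 20 reads per cytosine (15.2 points higher at week 1, edgeR adjusted p = 0.0288 over 2398 tiles). With the minimum of 10 reads used elsewhere it held 7 cytosines and differed by 9.26 points (edgeR adjusted p = 0.334); of these, the cytosine at 84179823 differed by 53.1 points and the other 6 by -8.59 to 1.52 points. On chromosome 19, the tile from 54823001 to 54824000 passed without week 1 replicate 3 (0.460% against 11.6%, edgeR adjusted p = 0.0263), and with that library the groups overlapped (2.29% against 11.6%). NSC was at 54.5% ± 4.36 (SD, n = 4) in that tile.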

How the data were processed

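Counts of methylated reads and of all reads per CpG cytosine and strand, with methylation in percent, are as deposited. The percent equals the truncated ratio of the counts, and cytosines under 5 reads are not listed. The tools were Bismark 0.23.0, methylKit 1.14.2, FastQC and Trim Galore, on the build mRatBN7.2, per the submitters' processing notes. Per the labels' protocols, MspI fragments above 300 bp were removed before bisulfite conversion and an Accel-NGS Methyl-seq library.

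Percents were recomputed from the deposited counts, without normalization. Tile counts were fitted with edgeR 4.0.16 (R 4.3.3): an effect per library, a group effect on the methylated count, a common dispersion and a quasi-likelihood F test, called at adjusted p under 0.05 and at least 10 points. The approximate SE of a log2 odds ratio is its size over the root of F. Single values used exact permutation over 126 splits (scipy 1.17.1), and limma 3.58.1 was an alternative. The fit was tested on simulated data. A read covering several cytosines counts at each, so reads are not independent molecules. The planned rule for named tiles asked for called tiles and named 0. Planned gene lists and sequences were not used here, since genome and annotation of mRatBN7.2 were not used and coordinates were not converted. Replicates are numbered in accession order. The comparison, lists and classes were chosen with earlier results of these data known.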

Additional observations from a re-analysis of the deposited data

Results flagged for a closer look

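In 86 groups of 4 or 5 library values that were checked, 5 held a library far from the others of its group, relative to the range of the group. Chance alone marks about 1 group in 20. In the class of cytosines under 10% methylation, week 1 replicate 1 stood at 2.12%, above the next at 2.00%. In the tile from 10974001 to 10975000 on chromosome 20, week 1 replicate 3 stood at 13.5%, below the next at 57.7%. In the tile from 153311001 to 153312000 on chromosome 4, week 1 replicate 4 stood at 53.3% over 30 reads, below the next at 81.0%. In the tile from 17849001 to 17850000 on chromosome 9, day 1 replicate 2 stood at 7.69% over 13 reads, below the next at 46.1%. In the tile from 68974001 to 68975000 on chromosome 18, day 1 replicate 2 stood at 100% over 10 reads, above the next at 71.5%.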

How the results depend on the processing

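Lower mean methylation at week 1 kept its direction in all 15 alternatives and its call in 14, the exception being pooled reads (-3.22 points, exact permutation p = 0.127); leaving out a library gave -2.03 to -1.34 points. Without single libraries the class at 30 to 70% ran from -3.40 to -2.63 points and that at 70 to 90% from -4.12 to -2.64. Each kept its call without day 1 replicate 2 or 5 and lost it without any of the other libraries. The smaller groups allow no exact permutation p under 0.0286 without a day 1 library or 0.0357 without a week 1 library. At these limits the adjusted p depends on how many classes reach them, so kept and lost calls do not show which libraries matter. With 5 reads the classes at 30 to 70% and 70 to 90% differed by -2.61 and -3.49 points, with 20 reads by -2.73 and -3.29. Neither was called in these settings, although the groups at 70 to 90% did not overlap in either. The class at 10 to 30% turned to -0.923 points with 20 reads and ran from 0.740 to 1.74 points over single libraries left out. Those under 10% and at 90 to 100% passed without day 1 replicate 2 (-0.148) and 5 (-1.45 points), within -0.195 to -0.00751 and -1.45 to -0.710 points over single libraries left out. Tiles called were 3 of 2398 tested with 20 reads, 2 of 968 with all 9 libraries and 2 of 3763 with 5 cytosines. They were 2 of 10589 with a trended dispersion and 0 to 1 of 10589 with a library left out. No tile was called in 20 of 26 settings. Centring shifted the median difference over the 5101 tiles with a value in every library from -1.09 to 0.613 points. Shares with 0 and 1 of 10 reads methylated turned to 0.3125 and 0.111 points with 20 reads; without single libraries, 1 of 10 ran from -0.272 to 0.0887 and 9 of 10 from -1.01 to 0.179. The tile from 63820001 on chromosome 18, called with 20 reads (-13.4 points), turned to 46.0 points with a coverage limit and 1.88 with 10 drawn reads. In day 1 replicates 1, 4 and 5 the limit removed the cytosines at 63820384, 63820396 and 63820436. Only the cytosine at 63820618 was left there, so the 46.0 points compare unlike cytosines. The cause of the change with 10 drawn reads was not tested. No paired analysis was possible because the labels number no replicates. The depth of day 1 replicate 2 limits the tiles that have a value in every library.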
